A study of Mus musculus with 24 samples.

Results

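Liver RNA from mice in which both Trib1 and Cebpa are floxed, called DKO, was compared with liver RNA from mice in which only Trib1 is floxed, labelled Trib1-KO. Because floxed Trib1 is common to both, the comparison asks what deletion of Cebpa does on that background. It used 12 of the 24 libraries of the series, 6 per group, and covered 19810 of the 54432 genes in the table, those whose mean over the 24 libraries was 1 or more. All mice were male C57BL/6 on chow, injected into the peritoneum at 20 to 21 weeks of age with an adeno-associated virus (AAV) carrying Cre recombinase, the enzyme that cuts out a floxed stretch of DNA. The promoter that drives Cre is not given in the sources used here. Livers were collected 4 weeks after injection, following a 4 h fast, in 2 cohorts of 3 mice per group. The wild-type mice (WT) and those with Cebpa alone floxed (Cebpa-KO) received the same virus, and they serve below for single levels and for setting the effect of floxed Cebpa on each background side by side.

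Cebpa encodes C/EBPα, a leucine-zipper transcription factor that is needed in adult liver for many genes of glucose, lipid, nitrogen and drug metabolism. Trib1 encodes a Tribbles pseudokinase, which cannot itself act as an active kinase but holds C/EBPα against the ubiquitin ligase COP1, so that C/EBPα is degraded. Loss of Trib1 from liver is known for a rise of C/EBPα protein. RNA alone was measured here, and no protein level can be read from it.

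Values are estimated counts divided by a size factor per library, called normalized counts. Each group of 6 is given as its lowest, median and highest library, and differences are DKO minus the libraries labelled Trib1-KO on the scale of log2(value + 1), with a standard error after ±. Where libraries of a group lay at or near 0, the size of the difference depends on the 1 added, which the standard error does not cover. A gene was called where its p from limma, adjusted by the Benjamini-Hochberg method for 19810 tests, was under 0.05, and only called genes are said to have risen or fallen. Library totals were 23385895 to 27190701 normalized counts, behind which stood an estimated 18640400 to 34287100 reads.

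The targeted genes were read first. Cebpa (ENSMUSG00000034957.10, chromosome 7, GRCm38) stood at 2295, 2627 and 3163 in the libraries labelled Trib1-KO and at 58.1, 87.8 and 102 in DKO, with no overlap. It fell by 5.02 ± 0.16 on the log2 scale (limma adjusted p = 1.9e-17, exact 2-sided permutation p = 0.00216, which is the lowest value possible with 6 and 6 libraries). Trib1 (ENSMUSG00000032501.9, chromosome 15) stood at 3734, 4164 and 4784 in the libraries labelled Trib1-KO, at 874, 1249 and 1475 in WT and at 286, 769 and 1077 in DKO. Trib1 RNA was therefore higher in the libraries labelled Trib1-KO than in any WT library, against that label, and all DKO libraries lay below all of those labelled Trib1-KO. The difference of DKO from the latter was -2.63 ± 0.24 (limma adjusted p = 4.3e-09, exact permutation p = 0.00216). One value per gene cannot show whether the floxed part was lost, so the group is written throughout as the libraries labelled Trib1-KO.

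**Figure D1:**
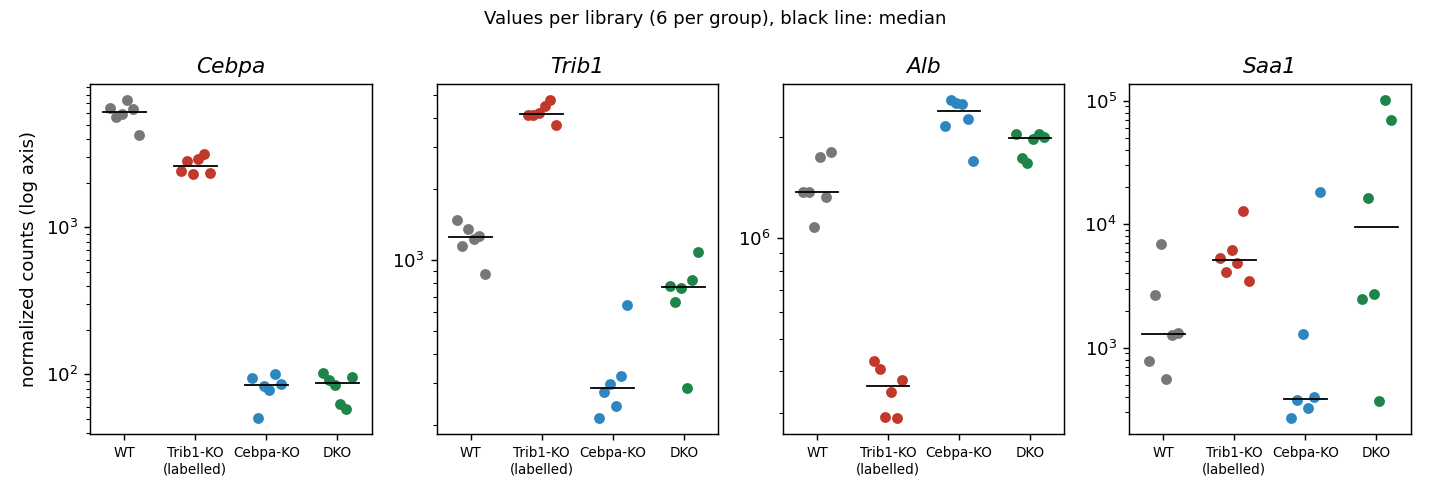
Normalized counts on a log axis for Cebpa, Trib1, Alb and Saa1 in each of the 24 libraries, with dots for libraries and a black line for the median of each group of 6. Cebpa lay at 58.1 to 102 in DKO, Trib1 was highest in the libraries labelled Trib1-KO, and Saa1 of DKO spread from 373 to 102240.

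The DKO libraries H2 and H3 stood apart from the other 4 by genes of the acute phase response, the change in liver secretion that follows inflammation. Saa1, a serum amyloid, stood at 102240 and 70244 in H2 and H3, and at 373 to 16249 in the other 4 DKO libraries. Counts and calls that moved most without these 2 libraries are given with and without them.

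Of the 19810 genes, 2901 were higher in DKO (14.6%) and 3105 lower (15.7%), so that 30.3% were called. By at least 2-fold, 904 were called higher (4.56%) and 1482 lower (7.48%). For 1613 genes every DKO library lay above every library labelled Trib1-KO (8.14%), and for 1732 every one lay below (8.74%). Many genes below were named for a small adjusted p in this same comparison. That choice favours groups that do not overlap, so non-overlap of a named gene is a description only. Without H2 and H3 there were 2608 higher and 2805 lower calls. This even split depended on the scaling: the major urinary protein (Mup) genes took 24.0 ± 2.34% of all normalized counts in the libraries labelled Trib1-KO against 2.79 ± 1.08% of those in DKO (SD, n = 6). With values rescaled to equal totals of the other genes, called the Mup-free scaling, the median difference over all genes moved from -0.02 to -0.28 and the calls to 1453 higher and 6329 lower. Values rescaled to equal totals of all genes gave 3517 higher and 2559 lower calls, and quantile normalization 3260 and 2802. The Mup-free counts of a list are given where they turned its balance of rises and falls or moved a count by over 1.5 times. Counts of every list below are to be read beside the 14.6% higher and 15.7% lower over all genes. Liver was taken whole, and fewer cells of a type cannot be told apart from less RNA per cell.

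The 24 genes named first are the 12 largest rises and 12 largest falls among called genes with a mean of at least 10 and no overlap of the groups. Matches to the motif that C/EBP factors bind were looked for in the promoters of these genes, as TTGCNNAA on either strand in RefSeq windows of 300 bases (GRCm38.p6) that run from 250 bases before the start of transcription to 50 after it. Of the 24 genes 19 had a window and 2 held the motif, against 10.8% of all 32851 windows. Those 2 are shown with albumin, the most abundant liver transcript that rose, as the 250 bases before the start, 5′ to 3′ on the strand of the gene, with the match in capitals.
Alb, chr5:90460620-90460869, plus strand, which rose: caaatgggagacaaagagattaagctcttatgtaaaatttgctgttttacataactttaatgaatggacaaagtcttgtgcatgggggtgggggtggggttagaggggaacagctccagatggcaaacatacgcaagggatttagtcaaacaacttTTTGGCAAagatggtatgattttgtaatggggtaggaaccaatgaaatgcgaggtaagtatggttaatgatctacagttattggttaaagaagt
Cyp2c37, chr19:39992174-39992423, plus strand, which rose: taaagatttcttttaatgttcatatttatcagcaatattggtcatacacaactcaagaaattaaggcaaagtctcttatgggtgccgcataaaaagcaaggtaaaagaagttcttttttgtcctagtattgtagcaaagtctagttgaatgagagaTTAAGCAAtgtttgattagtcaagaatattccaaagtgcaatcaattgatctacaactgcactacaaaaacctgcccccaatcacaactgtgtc
Cyp2b9, chr7:26173159-26173408, plus strand, which fell: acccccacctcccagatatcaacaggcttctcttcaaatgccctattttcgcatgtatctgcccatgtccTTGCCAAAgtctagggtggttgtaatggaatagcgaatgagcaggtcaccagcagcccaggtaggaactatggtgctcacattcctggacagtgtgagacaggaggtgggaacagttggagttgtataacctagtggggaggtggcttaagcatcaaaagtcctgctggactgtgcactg
The match begins at -94 from the start in Alb and Cyp2c37 and at -180 in Cyp2b9. The matched letters are TTTGGCAA in Alb, TTAAGCAA in Cyp2c37 and TTGCCAAA in Cyp2b9, so that the words of Alb and Cyp2b9 are reverse complements of each other. Genes with a match moved in both directions, and a match is a description of the sequence, not of binding.

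Genes of the major urinary proteins made up 7 of the 12 largest falls. The Mup genes encode small lipocalins that liver secretes and the kidney passes into urine, where they carry pheromones, and they lie side by side on chromosome 4 in near-identical copies. Of 22 measured members 20 fell and 2 rose, and their summed value stood at 5049068, 6129641 and 7263525 normalized counts in the libraries labelled Trib1-KO against 372146, 635787 and 1111436 in DKO. The sum fell by 3.27 on the log2 scale (exact permutation p adjusted over 15 gene families = 0.0036). Reads of near-identical copies can be shared out between them by the quantifier, so that values of single members are less certain than the sum.

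Mup15 stood at 463499, 554540 and 704277 in the libraries labelled Trib1-KO and at 0, 41.2 and 523 in DKO, a difference of -14.76 ± 1.76 (limma adjusted p = 3.3e-07). Mup18 stood at 178025, 215193 and 244796 against 0, 26 and 134, a difference of -13.85 ± 0.99 (adjusted p = 5.3e-11). Each was listed at 0 in at least 1 DKO library, and no library labelled Trib1-KO came near that level. Mup17, Mup19 and Mup8 differed by -12.13 ± 0.97, -11.25 ± 1.31 and -10.46 ± 0.66, and Mup7 and Mup6 by -8.90 ± 0.81 and -8.44 ± 0.37. None of these 7 members overlapped between the groups, as the rule for naming them required.

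The 2 remaining members went the other way, written here after their values were seen. Mup20, which encodes darcin, a male pheromone, stood at 13025, 26044 and 33838 in the libraries labelled Trib1-KO and at 291565, 385476 and 562367 in DKO, and rose by 4.10 ± 0.22 (limma adjusted p = 3.6e-13). Mup21 rose by 1.90 ± 0.23, from 356, 511 and 805 to 1306, 1864 and 3509 (adjusted p = 4.3e-07). Every DKO library lay above every library labelled Trib1-KO for both. Promoters of 3 Mup genes are shown because their genes moved apart: Mup15 and Mup19 fell and Mup21 rose. The capitals mark TATATAAG, searched on either strand, which 1.01% of all windows and 11 of the 14 Mup genes with a window hold.
Mup15, chr4:61439705-61439954, minus strand: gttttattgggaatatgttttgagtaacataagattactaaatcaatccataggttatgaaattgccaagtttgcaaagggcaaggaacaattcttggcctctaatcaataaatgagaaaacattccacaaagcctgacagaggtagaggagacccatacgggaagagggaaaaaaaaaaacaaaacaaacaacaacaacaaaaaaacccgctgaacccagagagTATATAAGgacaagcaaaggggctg
Mup19, chr4:61782225-61782474, minus strand: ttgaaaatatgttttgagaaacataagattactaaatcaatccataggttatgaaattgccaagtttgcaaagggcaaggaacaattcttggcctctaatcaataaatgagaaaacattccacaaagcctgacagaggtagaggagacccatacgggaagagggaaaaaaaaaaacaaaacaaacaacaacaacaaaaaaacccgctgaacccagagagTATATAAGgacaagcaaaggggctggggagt
Mup21, chr4:62150842-62151091, minus strand: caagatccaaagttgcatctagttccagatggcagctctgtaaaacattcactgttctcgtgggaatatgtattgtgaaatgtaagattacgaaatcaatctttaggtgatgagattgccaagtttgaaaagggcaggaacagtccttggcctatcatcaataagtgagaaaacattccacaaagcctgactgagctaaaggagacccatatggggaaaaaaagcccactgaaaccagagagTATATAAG
Over the 300-base windows, Mup15 and Mup19 were identical at 99% of aligned bases and Mup15 and Mup21 at 86.6%, so the members that moved apart keep the same box and much of the flanking sequence. The box begins 25, 31 and 8 bases before the annotated starts of Mup15, Mup19 and Mup21.

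**Figure D2:**
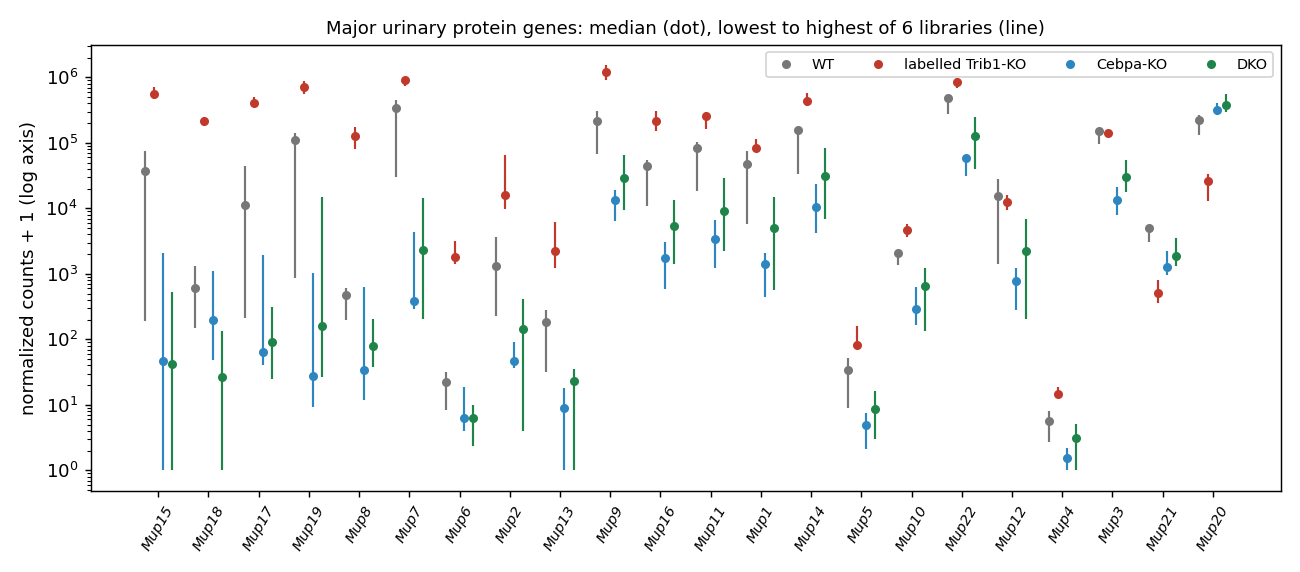
Normalized counts plus 1 on a log axis for the 22 Mup genes, ordered by their difference, with a dot for the median and a line from the lowest to the highest of the 6 libraries of each of the 4 groups. In 20 genes DKO lay lower than the libraries labelled Trib1-KO, while Mup21 and Mup20 at the right were higher.

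Sex-biased liver genes, which depend on the pattern of growth hormone release, moved in both directions. Of 21 measured female-biased genes 13 fell and none rose, with a median difference of -2.02 against -0.02 over all genes. Without H2 and H3, 11 fell. All mice were male. Sult3a1, a sulfotransferase, stood at 408, 989 and 1428 in the libraries labelled Trib1-KO, was listed at 0 in all 6 DKO libraries and reached 2.03 in WT. Cyp17a1, a P450 of steroid synthesis, stood at 3366, 3967 and 5799 against 36.9, 50.5 and 137 and fell by 6.17 ± 0.31 (limma adjusted p = 6.5e-14). Sult1e1, which sulfates estrogens, went from 236, 334 and 619 to 0, 0.525 and 2.06, and Sult2a1 from 46.3, 82.6 and 848 to 0 in all DKO libraries. Cyp2b9, a P450 of female liver, fell by 9.22 ± 0.78, from 2969, 3965 and 7563 to 0, 4.79 and 63 (adjusted p = 9.9e-10). Not one of the 5 overlapped between the groups, which the naming rule required for Sult3a1 and Cyp2b9. For the others the choice of list members by small adjusted p favoured it. Over all genes 16.9% did not overlap in either direction.

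Of 18 male-biased genes 10 rose and 5 fell, with a median of 0.72. Selenbp2, a selenium-binding protein, stood at 48.4, 89.6 and 142 in the libraries labelled Trib1-KO and at 14477, 60097 and 76557 in DKO, a rise of 8.99 ± 0.33 (limma adjusted p = 3.1e-16). Cyp2d9, a steroid hydroxylase of male liver, rose by 1.39 ± 0.09, from 14817, 17330 and 18967 to 39913, 45907 and 48819. Susd4, a regulator of complement, is on the same list and fell by 3.19 ± 0.25, from 822, 921 and 1035 to 50.7, 109.6 and 210.0 (adjusted p = 2.0e-10). Male-biased genes therefore did not move as 1 group. Slco1a1 and Ugt2b1 were no longer called with the Mup-free scaling.

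The growth hormone axis itself moved by smaller amounts, with a median of -0.14. Of 13 genes 3 rose and 3 fell, not a smaller share than the 14.6% and 15.7% over all genes. Ghr, the growth hormone receptor, rose by 0.73 ± 0.08 (limma adjusted p = 3.7e-08), and so did its secreted products Igfals, the acid-labile subunit of the IGF complex, by 1.23 ± 0.14 and Igf1 by 0.49 ± 0.08. The prolactin receptor Prlr, also a female-biased gene, fell by 2.02 ± 0.42, from 1669, 1839.6 and 2269 to 228, 478 and 1422 (adjusted p = 5.5e-04). No library overlapped for any of the 4 genes. Cux2 and Bcl6, a female and a male repressor of this axis, did not pass, at -0.41 and 0.39.

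Enzymes of drug and steroid metabolism rose for the most part. Of 29 measured genes 20 rose and 4 fell, with a median of 0.69 against -0.02 over all genes, and with the Mup-free scaling 18 rose and 6 fell. The summed Cyp2c genes, P450 enzymes that hydroxylate drugs and fatty acids, stood at 19604, 23967 and 27255 in the libraries labelled Trib1-KO and at 125320, 141701 and 177036 in DKO. That rise of 2.62 on the log2 scale had an adjusted exact permutation p of 0.0036, and 9 of 14 members rose while 3 fell. Cyp2c29 stood at 2620.4, 2893 and 3602 against 61170, 65045 and 88595 and rose by 4.57 ± 0.11 (limma adjusted p = 8.2e-20). Cyp2c37 rose by 5.53 ± 0.21, from 196, 322 and 609 to 9419, 16261 and 20121. Cyp2c54, Cyp2c55 and Cyp2c50 rose by 4.92 ± 0.19, 5.36 ± 0.21 and 3.05 ± 0.15, again with no overlap between the groups. For Cyp2c37 and Cyp2c55 the naming rule required this.

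Other families of the same kind moved in their own ways. The Ces1 carboxylesterases, which split esters and lipids, rose in 7 of 7 members and by 1.80 in their sum, and the Cyp2d and Ugt2b sums by 1.30 and 0.81 (adjusted exact permutation p = 0.0036 for each). Ces1g stood at 287, 387 and 521 in the libraries labelled Trib1-KO and at 10767, 13208 and 14646 in DKO, a rise of 5.09 ± 0.12 (limma adjusted p = 8.2e-20). Cyp3a rose by 0.51 in its sum with only 2 of 9 members called. Cyp2b went the opposite way, with 3 of 3 members lower and a sum of 156.6, 196 and 897 in DKO against 4138, 5051 and 9907 (difference -4.42). The Sult2a sum rose by 0.67 although 7 of its 8 members fell. Sult2a8 stood at 5667, 7009 and 9427 against 12167, 15306 and 18280 and rose by 1.09 ± 0.11, while Sult2a7 fell by 9.10 ± 0.43, from 946, 1687 and 2716 to 0, 2.36 and 6.16. Sult2a8 was named after its values were seen.

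**Figure D3:**
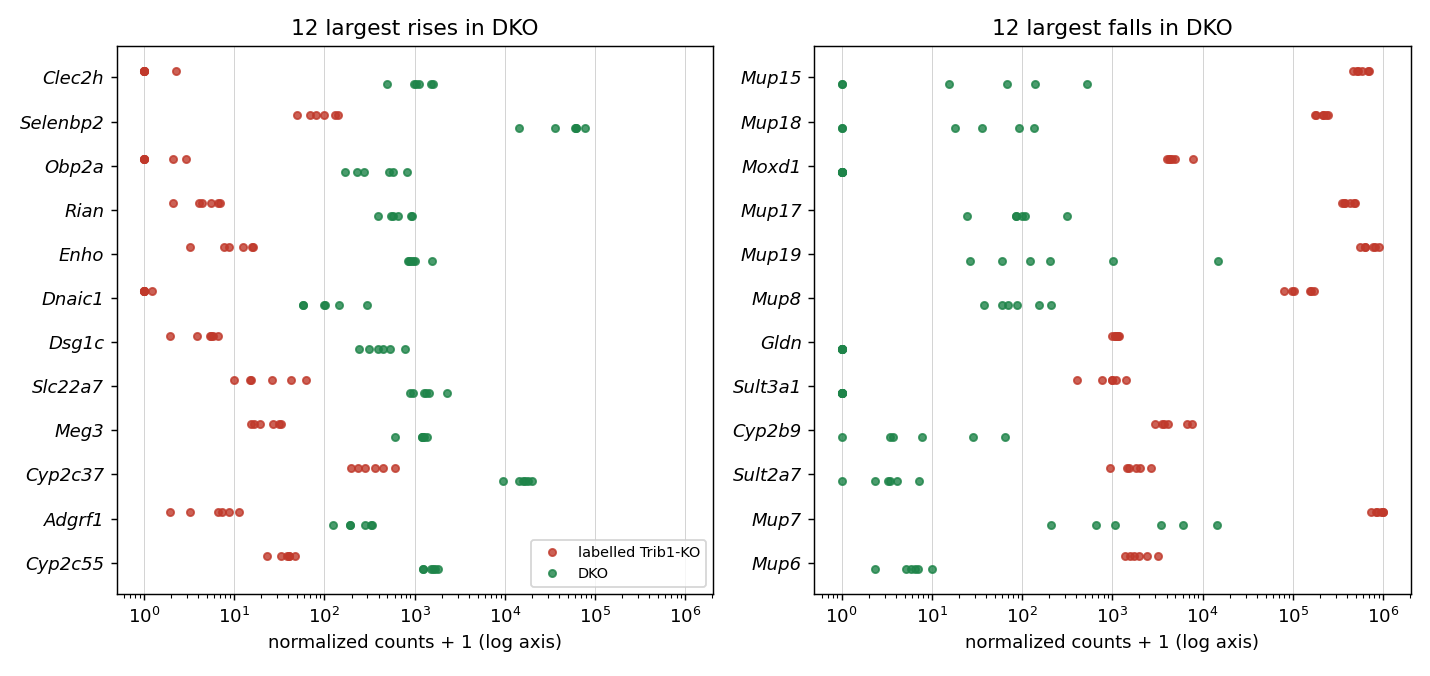
Normalized counts plus 1 on a log axis for the 12 genes with the largest rises (left) and falls (right), with a red dot for each library labelled Trib1-KO and a green dot for each DKO library. The 2 colours do not overlap in any row, as the rule for naming these genes required.

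The other large rises were of varied function. Clec2h, a C-type lectin, was listed at 0 in 5 of the 6 libraries labelled Trib1-KO and stood at 489, 1085 and 1587 in DKO, a difference of 9.84 ± 0.30 (limma adjusted p = 1.1e-17). Obp2a, an odorant-binding lipocalin, stood at 0, 0 and 1.93 against 169, 397 and 831 (difference 8.11 ± 0.40). The sizes for Clec2h and Obp2a depend on the 1 added before the logarithm. Enho, which encodes the secreted peptide adropin, rose by 6.73 ± 0.31, from 2.27, 9.64 and 15.1 to 846, 934 and 1575. Dnaic1, a dynein chain of cilia, and Dsg1c, a desmoglein of cell junctions, differed by 6.68 ± 0.62 and 6.53 ± 0.33. Slc22a7, the organic anion transporter OAT2, rose by 5.80 ± 0.42, from 9.02, 19.9 and 61.5 to 893, 1298 and 2263, and Adgrf1, an adhesion receptor, by 5.36 ± 0.36.

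A pair of imprinted long RNAs stood among the same 12. Meg3 and Rian lie next to each other on chromosome 12 in the Dlk1 to Dio3 locus, where maternal copies are expressed as long noncoding RNAs. Meg3 stood at 14.3, 22 and 31.9 in the libraries labelled Trib1-KO and at 601, 1219.6 and 1364 in DKO and rose by 5.61 ± 0.22 (limma adjusted p = 5.1e-16). Rian rose by 7.12 ± 0.26, from 1.1, 3.98 and 5.94 to 393, 617 and 929.9 (adjusted p = 2.0e-16). Mirg, the next noncoding RNA of the locus and named after its values were seen, stood at 0, 0.579 and 2.81 against 7.54, 16.6 and 65.4 (difference 3.63 ± 0.49, adjusted p = 2.4e-06). Every DKO library was higher than every library labelled Trib1-KO for all 3, which the naming rule required for Meg3 and Rian. Meg3 was also on the list of 8 measured fetal liver genes, of which 2 rose and 2 fell, so that list did not move as a whole.

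Among the falls outside the Mup and sulfotransferase genes, Moxd1, a copper monooxygenase, and Gldn, which encodes gliomedin, were each listed at 0 in all 6 DKO libraries. Moxd1 stood at 4038, 4442 and 7893 and Gldn at 993, 1096 and 1190.4 in the libraries labelled Trib1-KO. No fold is given for them.

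Plasma proteins made in liver rose in most of their members. Of 23 complement genes 17 rose and 1 fell (median 1.04), of 21 coagulation, fibrinolysis and kinin genes 15 rose and 3 fell (0.71), and of 20 secreted carriers 12 rose and 3 fell (0.51). The Mup-free scaling gave 17 and 3, 13 and 5, and 10 and 5, and complement had 17 rises and 2 falls without H2 and H3. These shares stand beside 14.6% higher and 15.7% lower over all genes. Alb, serum albumin, stood at 290593, 361843 and 428238 in the libraries labelled Trib1-KO and at 1680000, 1990000 and 2050000 in DKO and rose by 2.44 ± 0.15 (limma adjusted p = 3.1e-12). All 6 DKO libraries lay above all 6 others, and deposited values of this size carry only 3 digits. Selenop, the selenium carrier of plasma, rose by 1.37 ± 0.08, from 52338, 62751 and 64842 to 140719, 156529 and 179663. Serpina7, thyroxine-binding globulin, went the opposite way and fell by 5.08 ± 0.39, from 7469, 10488 and 12796 to 95.2, 273 and 676 (adjusted p = 2.2e-10).

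Within complement, C8a, which encodes part of the membrane attack complex, rose by 2.76 ± 0.14, from 4316, 5331 and 8907 to 33602, 35846 and 45079. C1ra, a protease of the first component, rose by 1.50 ± 0.06. Cfi, which inactivates C3b, rose by 1.52 ± 0.13 (limma adjusted p = 1.1e-09). The exception was C6, which acts in the same complex and is part of the male-biased list, at -2.06. It was named after its value was seen. In coagulation the anticoagulant Proc rose by 1.09 ± 0.06, from 4683, 5194 and 5830.0 to 10754, 11109 and 11416, and F13b, Klkb1 and Proz rose by 1.43 ± 0.09, 1.14 ± 0.07 and 1.15 ± 0.08. Groups did not overlap for any of these 8 genes.

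Acute phase genes gave no common direction, and here the DKO libraries H2 and H3 mattered. Of 24 genes 7 rose and 5 fell with all libraries, against 6 and 9 without H2 and H3. Orm3, an orosomucoid, fell by 7.04 ± 0.77, from 1270.3, 1426 and 1817 to 0.812, 8.48 and 97.9 (limma adjusted p = 7.4e-08). Apcs, serum amyloid P, stood at 6862, 7456 and 10310 against 407, 647 and 4207 (difference -2.98 ± 0.44), and Crp, C-reactive protein, rose by 0.56 ± 0.08. Itih3, a heavy chain of inter-alpha-trypsin inhibitor, rose by 2.00 ± 0.32 with all DKO libraries and by 1.45 without H2 and H3.

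Genes that set H2 and H3 apart, named after their values were seen, lost or gained calls with them. Orm1 stood at 18592, 20066 and 23214 in the libraries labelled Trib1-KO and at 69, 4950.3 and 66375 in DKO, and overlapped. Its difference was -2.29 ± 1.18 (limma adjusted p = 0.15), and without H2 and H3 it was -4.11 (adjusted p = 0.0057). Saa2 was -0.79 ± 1.21 (adjusted p = 0.68) and without them -2.97 (adjusted p = 0.022). Lcn2, lipocalin 2, stood at 889, 1530.3 and 1973 against 12.4, 47.6 and 5039 and fell by 3.28 ± 1.02 (adjusted p = 0.016), or by 5.47 without them, and its call was lost without the DKO library H1 (adjusted p = 0.0532) and in a fit of the 12 compared libraries alone (adjusted p = 0.0605). Saa1 and Hp, haptoglobin, did not pass either way. The sum of the 4 Saa genes differed by 0.05 with all libraries and by -1.28 without H2 and H3 (adjusted exact permutation p = 0.97 and 0.046), and that of the 3 Orm genes by -2.16 and -3.97 (0.24 and 0.0079). Leaving out the DKO library H1 alone brought the Orm sum to -1.012.

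Most genes of lipid synthesis fell, and those of lipid storage fell more often than they rose. Of 22 genes of fatty acid and triglyceride synthesis 15 fell and 3 rose (median -0.62), and of 20 genes of lipid droplets and fatty acid uptake 9 fell and 4 rose (-0.60), or 15 and 1 with the Mup-free scaling. Fasn, fatty acid synthase, stood at 8409, 12277 and 16117 in the libraries labelled Trib1-KO and at 2407, 2679.6 and 3538 in DKO and fell by 2.10 ± 0.18 (limma adjusted p = 1.5e-09). Scd1, the desaturase that makes oleate, fell by 2.06 ± 0.21, from 219167, 365730 and 504322 to 58230, 86402 and 113107. The elongases Elovl5 and Elovl6 fell by 2.45 ± 0.22 and 1.71 ± 0.18. Exceptions that rose were Fads1, Mid1ip1 and Srebf1, named after their values were seen, at 1.09, 1.01 and 0.56, and Srebf1 was not called with the Mup-free scaling.

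Cidec, a protein that joins lipid droplets into larger ones, stood at 1814, 2116 and 2882 in the libraries labelled Trib1-KO and at 13.2, 87.8 and 129.9 in DKO, a difference of -5.09 ± 0.47 (limma adjusted p = 3.9e-09). Fabp4, a fatty acid binding protein of fat cells and macrophages, and Hilpda, an inhibitor of droplet lipolysis, fell by 2.17 ± 0.19 and 1.82 ± 0.16. Slc27a2, which activates long-chain fatty acids, rose by 0.96 ± 0.07. For these 4 genes the groups did not overlap. Of the 7 listed adipocyte and muscle markers only Retn had a mean of at least 1, at 6.75, 12.5 and 15.9 against 0, 0 and 0.686, and Adipoq, Lep and Plin1 lay below the filter.

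Fatty acid oxidation and ketogenesis gave 9 rises and 3 falls among 21 genes, but 4 and 11 with the Mup-free scaling, so no direction is stated for the list. Cyp4a10, an omega-hydroxylase, rose by 3.11 ± 0.36 (limma adjusted p = 1.9e-07), and the Cyp4a sum over 6 genes did not pass (0.11). Pdk4, which blocks entry of pyruvate into the citric acid cycle, fell by 3.09 ± 0.40, from 551, 960.1 and 1183 to 50, 107 and 290.5, and Vnn1, a pantetheinase, by 1.97 ± 0.30.

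Lipoprotein genes split. Of 22 apolipoprotein and assembly genes 9 rose and 5 fell, and of 9 receptor and sorting genes 3 rose and 3 fell. With the Mup-free scaling these counts were 5 and 9, and 2 and 5, so no direction is stated for either list. Apob, the structural protein of very low and low density lipoproteins (chromosome 12), stood at 134749, 139872 and 146033 in the libraries labelled Trib1-KO and at 157505, 173128 and 182227 in DKO and rose by 0.30 ± 0.07 (limma adjusted p = 0.002), with every DKO library higher. The Mup-free scaling brought that difference to 0.02 (adjusted p = 0.86). Sort1 (chromosome 3), which encodes sortilin, a receptor that sorts proteins in the secretory pathway, stood at 591, 729 and 798 against 427, 567 and 671 and did not pass at -0.33 ± 0.13 (adjusted p = 0.058). It passed with the Mup-free scaling at -0.61 (adjusted p = 0.001). Sort1 also passed narrowly with a filter at a mean of 10, with only the 12 libraries and with quantile normalization (limma adjusted p = 0.0485, 0.0446 and 0.0484).

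Larger differences were seen in other members. Vldlr, the receptor for very low density lipoprotein, fell by 5.57 ± 0.36, from 322, 452 and 611 to 4.34, 7.75 and 16.5 (limma adjusted p = 9.5e-12). Apoa4, an apolipoprotein of triglyceride-rich particles, fell by 3.94 ± 0.32, from 23798, 29485 and 41274 to 1128, 1614 and 9152. Apoa1, the main protein of high density lipoprotein, rose by 0.99 ± 0.09, and its partners Lcat, which esterifies cholesterol, and Scarb1, its receptor, by 0.85 ± 0.08 and 1.23 ± 0.12. Lipc, hepatic lipase, rose by 1.08 ± 0.08. No library overlapped for any of these 6.

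Cholesterol synthesis gave 4 rises and 4 falls among 21 genes, and 4 and 11 with the Mup-free scaling. Ebp and Tm7sf2, late enzymes of the pathway, rose by 0.77 ± 0.06 and 0.99 ± 0.10 (limma adjusted p = 1.4e-10 and 2.4e-08). Sc5d rose by 0.60 ± 0.09, and Insig1, which holds the SREBP complex in the endoplasmic reticulum, by 0.56 ± 0.11 with overlapping groups.

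In bile acid genes 7 of 23 rose and 3 fell, or 5 and 10 with the Mup-free scaling. Cyp7b1, which hydroxylates oxysterols and is male-biased, rose by 2.79 ± 0.26, from 1678, 1941 and 3574 to 7109, 17179 and 22676 (limma adjusted p = 4.6e-09). Amacr and Slc27a5, enzymes of side chain shortening and activation, rose by 1.30 ± 0.07 and 1.28 ± 0.07. Abcb4, the phospholipid exporter of the bile canaliculus, fell by 0.76 ± 0.07.

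Carbohydrate genes fell more often than they rose, at 8 against 4 of 19, beside 15.7% and 14.6% over all genes. Gbe1, the branching enzyme of glycogen, stood at 4118, 5120.2 and 6159 in the libraries labelled Trib1-KO and at 1595, 2043 and 2302 in DKO and fell by 1.36 ± 0.13 (limma adjusted p = 5.9e-09). Ugp2, which makes the sugar donor of glycogen synthesis, fell by 0.80 ± 0.10, and Ppp1r3b, which brings a phosphatase to glycogen, by 1.35 ± 0.21. All 3 moved without overlap of the groups. Pck1, the first step of gluconeogenesis and named after its value was seen, rose by 1.04, so the list covers genes of both directions.

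Nitrogen genes were mixed. In the urea cycle 3 of 9 rose and 2 fell, or 3 and 3 with the Mup-free scaling. Otc, ornithine transcarbamylase, rose by 1.48 ± 0.08, from 4036, 4741 and 5213 to 11628, 12308 and 15014 (limma adjusted p = 9.2e-14), and Slc25a13 and Ass1 rose by 1.17 ± 0.08 and 1.10 ± 0.14. Slc25a15, the ornithine carrier, fell by 0.73 ± 0.15. Of 31 genes of amino acid catabolism 14 rose and 6 fell, or 8 and 13 with the Mup-free scaling. Ftcd, of histidine breakdown, rose by 1.54 ± 0.07 and Gnmt, which disposes of methyl groups, by 0.94 ± 0.10, while Hgd, of tyrosine breakdown, fell by 1.08 ± 0.11, from 16120, 17214 and 19449 to 6509.5, 8599 and 9406.

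Genes that mark the 2 ends of the liver lobule both included rises. Of 15 pericentral genes 6 rose and 4 fell, and of 15 periportal genes 7 rose and 1 fell. With the Mup-free scaling these counts were 4 and 6, and 7 and 5, and without H2 and H3 periportal genes had 7 rises and 4 falls. Cyp2e1, a pericentral P450, rose by 1.48 ± 0.11 and Cyp2f2, a periportal one, by 1.90 ± 0.10 (limma adjusted p = 2.1e-10 and 7.7e-14). Slc22a3, a pericentral cation transporter, fell by 3.08 ± 0.27, from 283, 309 and 348 to 27.8, 36 and 42.1. Etnppl and Uox, periportal enzymes, rose by 1.38 ± 0.22 and 0.84 ± 0.09.

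Among iron genes 5 of 14 rose and 3 fell, or 3 and 4 with the Mup-free scaling. Over all genes 14.6% rose and 15.7% fell. Tfr2 and Tmprss6, an iron sensor and a protease of the hepcidin pathway, rose by 0.85 ± 0.11 and 0.52 ± 0.07, and Hjv, the BMP co-receptor that Tmprss6 cleaves, fell by 1.15 ± 0.13, from 1996, 2248 and 2445 to 752, 965 and 1372 (limma adjusted p = 1.2e-07). The sum of the hepcidin genes Hamp and Hamp2 did not pass, at -0.13. Trf, transferrin, rose by 1.10 ± 0.16 with all libraries and by 0.81 without H2 and H3.

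NRF2 antioxidant genes also split, with 7 of 18 higher and 9 lower. Gstm3, a glutathione transferase, rose by 3.06 ± 0.26, from 706, 1205 and 2245 to 6839, 11263 and 13659 (limma adjusted p = 1.2e-09), and Gclm, of glutathione synthesis, by 1.07 ± 0.07. Pgd, of the pentose phosphate pathway, which also supplies NADPH for lipid synthesis, fell by 1.35 ± 0.10, from 1419, 1984 and 2528 to 714, 761 and 836.

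Of 13 genes for C/EBP factors, Tribbles proteins and the ligase complex around COP1, 3 rose, 6 fell and 4 did not pass. Cebpe stood at 33, 39.1 and 60.5 in the libraries labelled Trib1-KO and at 303, 344 and 391 in DKO and rose by 3.08 ± 0.13 (limma adjusted p = 3.7e-15). Cebpg, a family member without a transactivation domain, rose by 0.96 ± 0.08, from 1428, 1561 and 1727 to 2649, 3072 and 3402. Cebpb, the other main C/EBP of liver, rose by 0.80 ± 0.26 (adjusted p = 0.022) with overlapping groups. That call was lost with the Mup-free scaling and without library C3, D3 or G3 (adjusted p = 0.0573 to 0.0628). Ddit3, which encodes the stress-induced partner CHOP, fell by 1.40 ± 0.14, from 214, 251 and 339 to 82.7, 97.7 and 111.

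In the degradation machinery Trib3 fell by 1.30 ± 0.18, from 379, 454 and 541 to 128, 181 and 313 (limma adjusted p = 4.2e-06). Det1 and Ddb1, subunits that join COP1 to its cullin, fell by 0.39 ± 0.12 and 0.20 ± 0.07 with overlap, and the call of Ddb1 was lost without H2 and H3 (-0.16, adjusted p = 0.155), with equal library totals (-0.12, adjusted p = 0.273) and in several other alternatives. Det1 lost its call with quantile normalization (-0.27, adjusted p = 0.0849). Cop1 itself stood at 899.7, 969.7 and 1157 against 953, 1012 and 1046 and differed by 0.01 ± 0.07, but fell by 0.28 with the Mup-free scaling (adjusted p = 0.0021). Trib2, Cebpd and Cebpz did not pass at 0.02, -0.02 and 0.17.

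Of 20 hepatocyte transcription factors 5 rose and 2 fell, or 3 and 6 with the Mup-free scaling. Their calls stand beside 30.3% called over all genes. Nr1i3, the drug sensor CAR, rose by 1.44 ± 0.15, from 1752, 2073 and 2397 to 4032, 6427 and 6737 (limma adjusted p = 4.3e-08). Nr0b2, the corepressor SHP, rose by 1.12 ± 0.21 and Nr5a2, its partner LRH-1, by 0.42 ± 0.08, the latter without passing under the Mup-free scaling. Nr1h3, the oxysterol sensor LXRα, fell by 0.45 ± 0.08. Hnf4a, a central factor of the hepatocyte program, did not pass at -0.03 ± 0.09, and neither did 12 others. Hnf4a was called lower with the Mup-free scaling, at -0.31 (adjusted p = 0.0101).

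Clock genes gave 7 rises and 3 falls among 17, beside 14.6% higher and 15.7% lower over all genes. Dbp and Tef, output factors of the clock, rose by 1.51 ± 0.27 and 1.29 ± 0.22 (limma adjusted p = 9.7e-05 and 4.5e-05), and Nfil3, which competes for the same sites, fell by 2.01 ± 0.19, from 849.5, 947 and 1130.4 to 176, 236 and 329.6. Cry2 rose by 0.64 ± 0.10. Livers were taken at midday, at a single time, so no phase can be read.

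Genes of stress responses, growth and matrix fell more often than they rose. Of 22 genes of the ATF4 pathway and unfolded protein response 9 fell and 1 rose, or 12 and none with the Mup-free scaling. Asns, asparagine synthetase, stood at 985, 1159 and 1486 in the libraries labelled Trib1-KO and at 4.53, 12.5 and 41.4 in DKO and fell by 6.36 ± 0.47 (limma adjusted p = 9.3e-11). Atf3, a stress-induced factor, fell by 5.16 ± 0.39, from 402, 607 and 792 to 6.52, 18.1 and 29.4. Fgf21, a hormone of fasting and amino acid shortage, and Psat1, of serine synthesis, fell by 3.77 ± 0.41 and 4.65 ± 0.51. Hspa5, the main chaperone of the endoplasmic reticulum, did not pass at -0.09 ± 0.17.

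Of 13 immediate early genes 8 fell and 1 rose, the latter, Zfp36, by 0.61 ± 0.22 (limma adjusted p = 0.041). That call was lost without H2 and H3 (0.45, adjusted p = 0.162), with the Mup-free scaling (adjusted p = 0.258) and in several other alternatives. Klf6 fell by 1.38 ± 0.13, from 580.4, 777 and 852 to 240.2, 281 and 349 (limma adjusted p = 1.2e-08), and Myc by 2.14 ± 0.40, from 267, 319 and 477 to 50.7, 67.4 and 121. Btg2 and Dusp1 fell by 1.70 ± 0.33 and 1.48 ± 0.32. Junb was not called, at 0.67 ± 0.29.

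Of 25 cell cycle genes 16 fell and 1 rose, with a median of -1.26, and 16 fell and 2 rose without H2 and H3. Mki67, a protein of dividing cells, stood at 176, 219 and 381 in the libraries labelled Trib1-KO and at 47.6, 61.9 and 97.2 in DKO and fell by 1.89 ± 0.28 (limma adjusted p = 1.0e-05). Ccnd1, cyclin D1, fell by 2.42 ± 0.26, from 719.9, 1138 and 1590.1 to 115, 216 and 377, and so did the inhibitor Cdkn1a, which encodes p21, by 2.23 ± 0.35. E2f1 was the member that rose, by 1.32 ± 0.12, from 49.2, 59.5 and 61.5 to 129, 147 and 161. The genes of mitosis, such as Ccnb1, Plk1 and Aurkb, named after their values were seen, fell by 2.47, 2.11 and 2.23.

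Extracellular matrix genes fell in 13 of 19 cases and rose in none (median -0.85), with 9 falls left without H2 and H3. Col3a1, a fibrillar collagen, fell by 1.11 ± 0.20, from 1381, 1511 and 2277 to 525, 797 and 1045 (limma adjusted p = 8.1e-05). Fbn1 and Col4a1, of microfibrils and basement membrane, fell by 1.06 ± 0.16 and 1.01 ± 0.16, and Timp1, an inhibitor of matrix proteases, by 3.62 ± 0.62. Interferon-stimulated genes fell in 8 of 22 cases and rose in 3, or 5 and 1 without H2 and H3 and 14 and none with the Mup-free scaling. Gbp3, a guanylate-binding protein, fell by 1.74 ± 0.26, and Oas1a and Ifit2 by 1.06 ± 0.20 and 0.77 ± 0.16.

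Markers of other liver cells did not move as 1 group, and their part in the results was not tested. Their counts stand beside 14.6% higher and 15.7% lower over all genes. Kupffer cell and stellate cell markers fell in larger shares, while 2 falls among 13 lymphocyte markers were near that share. Of 12 Kupffer cell and macrophage markers 7 fell and none rose, and their summed value stood at 18065, 19405 and 21186 in the libraries labelled Trib1-KO against 10599, 14385 and 16717 in DKO, without overlap. Cd14, a receptor for bacterial lipid that hepatocytes can also make, fell by 3.48 ± 0.24, from 475, 634 and 778 to 33.1, 58.5 and 79.9 (limma adjusted p = 1.9e-11), and Cd68 by 1.18 ± 0.20. The defining Kupffer markers Clec4f and Timd4 did not pass, at -0.26 ± 0.12 and -0.02 ± 0.13, and Clec4f was called lower with the Mup-free scaling, at -0.55 (adjusted p = 5.1e-04), with quantile normalization (adjusted p = 0.0429) and with the column number as a replicate block (-0.26, adjusted p = 0.0259). Of 12 stellate cell markers 6 fell and none rose, with sums of 12251 to 14441 and 9562 to 12131, and Dcn, decorin, fell by 0.46 ± 0.08. Sinusoidal endothelial markers gave 3 falls and 1 rise of 12, with overlapping sums of 14997 to 15927 and 13222 to 15779, and 1 fall without H2 and H3. With the Mup-free scaling 10 Kupffer cell, 10 stellate cell and 8 endothelial markers fell and none rose.

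Lymphocyte markers gave 2 falls among 13, neutrophil markers no call among 7, and erythroid markers 1 fall among 5, in Alas2, the enzyme of heme synthesis in red cell precursors. Their summed values overlapped for lymphocytes (210.4 to 590 and 176 to 378) and neutrophils (141 to 433 and 134 to 478), where 1 marker fell without H2 and H3. The erythroid sum had a median of 3403 in the libraries labelled Trib1-KO against 1830.0 in DKO, with slightly overlapping ranges of 2404 to 3803 and 1288 to 2437. Of 6 pancreatic acinar markers 2 were measured and 1 rose, with sums of 162 to 242 and 394 to 691 that did not overlap. Of 11 measured cholangiocyte markers 3 rose, 1 fell and 7 did not pass, with a median difference of -0.21. Their sum was higher in DKO, at 2932 to 6055 against 1170 to 1432. Within it Spp1, osteopontin, rose by 2.14 ± 0.21, while Krt19 and Epcam did not pass and Sox9 fell by 1.54 ± 0.24. No measured marker was at 0 in all 12 libraries. Of the 8 hepatocyte markers 5 rose and 1 fell, with a median of 0.56. Their sum was 798368 to 930267 in the libraries labelled Trib1-KO against 2470880 to 2883953 in DKO, where Alb made up most of it.

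Mitochondrial genes showed how small shifts depended on the scaling. Of 23 nuclear genes of oxidative phosphorylation 14 rose and none fell, but 1 rose and 4 fell with the Mup-free scaling. Ndufa4, the member with the smallest adjusted p and the one still called higher, rose by 0.48 ± 0.06 (limma adjusted p = 1.4e-06). Of 13 transcripts of the mitochondrial genome 1 rose and 1 fell, or none and 3 with the Mup-free scaling.

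**Figure D4:**
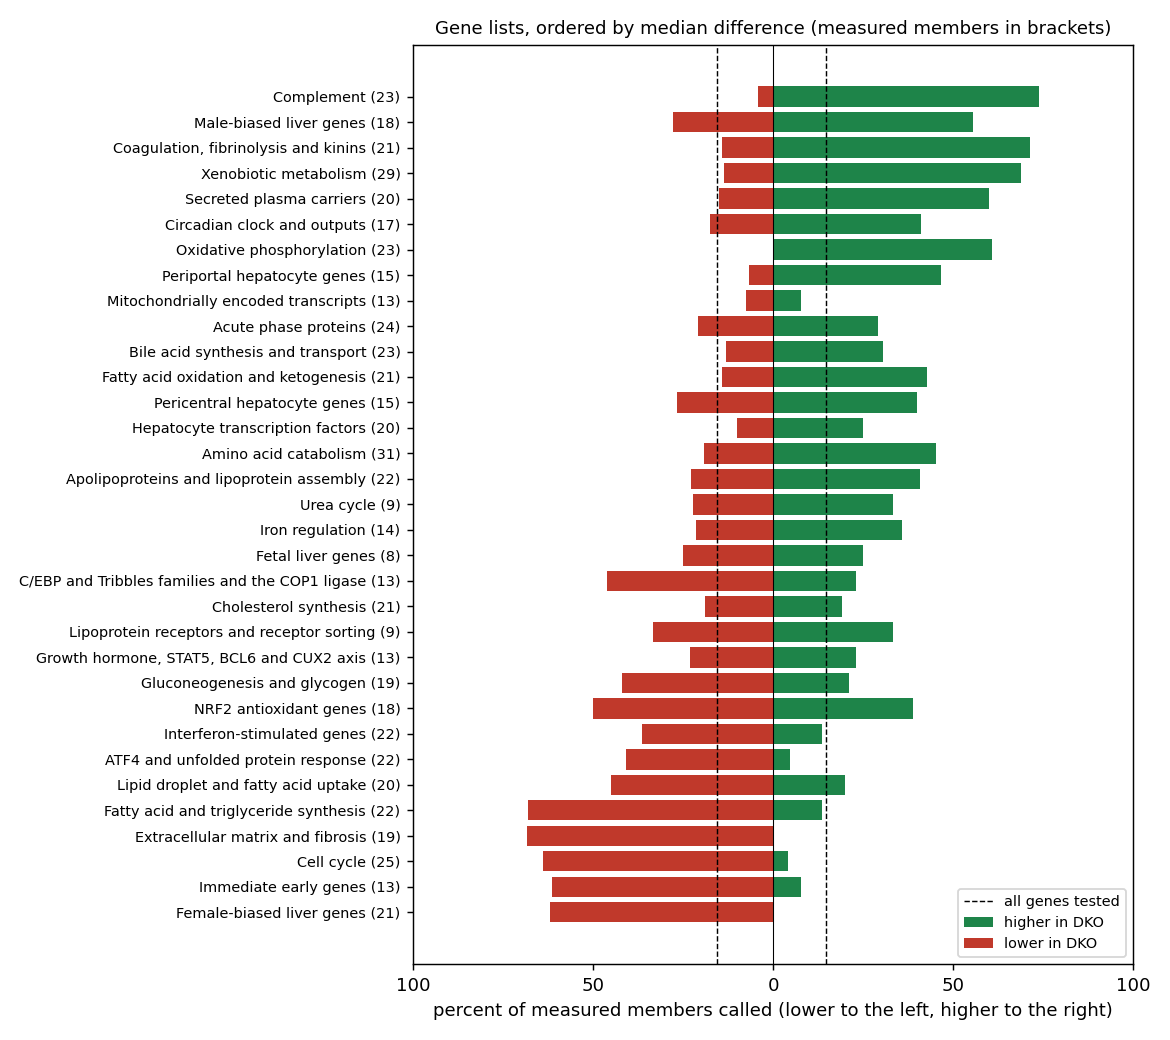
Share of the measured members of each of 33 gene lists that were called higher (green, to the right) or lower (red, to the left) in DKO, in percent, ordered by the median difference, with dashed lines at 14.6% and 15.7% for all genes. Complement, male-biased, coagulation and xenobiotic genes stand at the top and female-biased, immediate early, cell cycle and matrix genes at the bottom.

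The same floxed Cebpa can be read on the other background, from the 6 Cebpa-KO against the 6 WT libraries, which share no library with the comparison above. Cebpa fell by 6.19 on the log2 scale there. Of the 19810 genes 912 were higher (4.60%) and 1034 lower (5.22%), so that 9.82% were called against 30.3%. Over the 6006 genes called between DKO and the libraries labelled Trib1-KO, the median size of the difference was 0.80 there and 0.25 between Cebpa-KO and WT. Called in both were 1376 genes, of which 1303 moved the same way (653 higher and 650 lower), or 21.7% of the calls on the Trib1-floxed background and 67.0% of those on the other. As a description, the differences had a Pearson r of 0.43 and a Spearman rho of 0.30 across genes, which are not independent replicates.

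Genes called in the same direction on both backgrounds included Susd4, at -3.19 and -3.64, Mup7, at -8.90 and -8.48, Asns, at -6.36 and -4.51, and Meg3, at 5.61 and 4.24. The first of these pairs is DKO minus the libraries labelled Trib1-KO and the second Cebpa-KO minus WT. They were chosen from genes already named above, after their values were seen, and the interaction was called for Meg3 among them (adjusted p = 0.003).

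The difference between the backgrounds was tested as an interaction, (DKO minus the libraries labelled Trib1-KO) minus (Cebpa-KO minus WT). It was called for 2490 genes (12.6%), of which 1257 were positive (6.35%) and 1233 negative (6.22%), and with the Mup-free scaling for 626 and 2873. The 6 largest positive values were those of Selenbp2 at 7.61 ± 0.47, Clec2h at 6.56 ± 0.43, Enho at 5.87 ± 0.44, Dnaic1 at 5.77 ± 0.87, Obp2a at 5.73 ± 0.57 and Tff3, a trefoil peptide, at 5.56 ± 0.98. The 6 largest negative values were those of Mup18 at -12.38 ± 1.40, Cyp2b9 at -10.64 ± 1.10, Sult3a1 at -9.09 ± 0.46, Gldn at -8.24 ± 0.64, Moxd1 at -8.22 ± 1.36 and Sprr1a, a cornified envelope protein, at -7.79 ± 0.55. Limma adjusted p lay between 1.5e-12 and 3.0e-04 for these 12. Since Sult3a1, Gldn and Moxd1 were listed at 0 in all DKO libraries, the size of their values depends on the 1 added before the logarithm. The same holds for Clec2h, Dnaic1, Obp2a and Tff3, which were near or at 0 in all libraries labelled Trib1-KO, for Sprr1a, above 0 in a single DKO library, and for Mup18 and Cyp2b9, listed at 0 in at least 1 DKO library.

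Levels in the 4 groups show where these differences lie. Selenbp2 had medians of 17657 in WT, 54910 in Cebpa-KO and 60097 in DKO, and of 89.6 in the libraries labelled Trib1-KO. Cyp2b9 had medians of 4.27, 8.6 and 4.79 in WT, Cebpa-KO and DKO and of 3965 in the libraries labelled Trib1-KO. All libraries labelled Trib1-KO lay below every library of the other 3 groups for Selenbp2 and above every one for Cyp2b9. Against DKO the naming rule required this. Over all genes, library profiles of DKO correlated with each other at 0.962 to 0.973, with Cebpa-KO at 0.958 to 0.970 and with the libraries labelled Trib1-KO at 0.933 to 0.944 (Pearson r of log2 values across genes, a description).

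Lists differed between the backgrounds by count. The shares called over all genes were 9.82% in Cebpa-KO against WT, 30.3% here and 12.6% for the interaction. Cholesterol synthesis had 12 of 21 genes lower and none higher in Cebpa-KO against WT, and 4 of each between DKO and the libraries labelled Trib1-KO, and 9 of its genes had a called interaction. Complement had 5 higher and 3 lower against 17 and 1, with 16 interactions called, and female-biased genes 1 higher and 5 lower against none and 13, with 11. Extracellular matrix genes had no call in Cebpa-KO against WT and 13 falls here, with interactions called for only 4 of 19. Male-biased genes had 2 higher and 8 lower there against 10 and 5 here, with 13 interactions called. Mup21, on that list, went in opposite directions, at -1.73 in Cebpa-KO against WT and 1.90 here (interaction adjusted p = 2.2e-08).

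**Figure D5:**
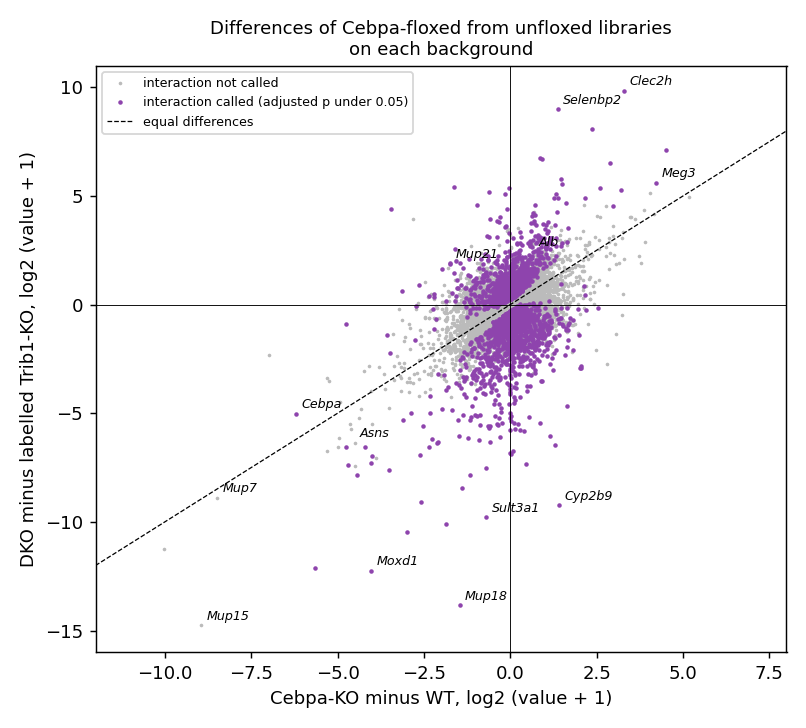
Difference between DKO and the libraries labelled Trib1-KO (vertical) against that between Cebpa-KO and WT (horizontal), both in log2 of the value plus 1, with 1 point for each of 19810 genes, purple where the interaction was called (12.6%) and a dashed line where both are equal. Mup7 lies near the line, and Cyp2b9, Mup18 and Selenbp2 far from it. Meg3, with a called interaction, and Asns lie between, off the line but closer to it.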

How the data were processed

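Poly(A) RNA from about 100 mg of flash-frozen liver was sequenced as stranded libraries, per the labels' protocols. The deposited signal is 1 normalized count per gene and library. Per the submitters' processing notes, Salmon, DESeq2 and the mouse genome GRCm38.p6 were used to make it, and their versions and settings are not given in the sources used here. Because the deposited signal is an estimated count already divided by a size factor (61.2 to 66.2% of low values lay within 0.02 of a whole multiple of the smallest step), a count model was not applied, and library depth is an estimate from that step.

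The log2(value + 1) of genes with a mean of at least 1 over the 24 libraries was fitted with limma 3.58.1 in R 4.3.3, with 4 group means and an intensity trend. Calls used a Benjamini-Hochberg adjusted p under 0.05. The fit was tested on simulated data with 200 genes changed in DKO against the libraries labelled Trib1-KO. It recovered 53% of those changed by 1 and 82% of those changed by 2 on the log2 scale. There were 5 false calls among the genes left unchanged. Far fewer genes were changed there than the 6006 called here, so these rates do not carry over to the comparison. Sums of 15 gene families were tested by exact 2-sided permutation of the 12 libraries. Of the 54432 gene identifiers 54050 (99.3%) were found in GENCODE M21, which gave positions.

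Lists were described by counts and medians. Planned scores of cell type markers were replaced by counts and summed values. Named genes are Cebpa, Trib1, Apob and Sort1, the 12 largest rises and falls that did not overlap, the 6 largest interactions each way, and up to 4 members of each list by adjusted p. Genes outside this rule were named after their values were seen. The members, gene lists and rules were chosen with earlier results of these data known. Some genes of the lists are not reported here. Alternatives were other pseudocounts, filters, scalings, variance models and sets of libraries, a term for the column number, and, chosen after seeing the data, the fit without the DKO libraries H2 and H3. Column names do not name the mouse, so the 2 cohorts could not be a term, and cohort effects within groups were not tested. Each library is taken as 1 mouse, as the labels give it.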

Additional observations from a re-analysis of the deposited data

Results flagged for a closer look

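In 6 of 56 groups of 6 libraries, 1 library stood away from the other 5 by more than Dixon's 95% critical value, on the scale of log2(value + 1), where chance flags about 1 in 20 groups. In DKO the lowest Trib1 value was 8.17 (library H1), the highest Enho value 10.6 and the lowest Meg3 value 9.23. In the libraries labelled Trib1-KO the highest Moxd1 value was 12.9, and Clec2h and Dnaic1 were above 0 in a single library, at 1.19 and 0.288.

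The difference between the backgrounds was called by the interaction in limma for 2490 genes. The largest positive values were 7.61 for Selenbp2, 6.56 for Clec2h, 5.87 for Enho, 5.77 for Dnaic1, 5.73 for Obp2a and 5.56 for Tff3. The largest negative values were -12.4 for Mup18, -10.6 for Cyp2b9, -9.09 for Sult3a1, -8.24 for Gldn, -8.22 for Moxd1 and -7.79 for Sprr1a. Trib1 RNA in the libraries labelled Trib1-KO, which enter each of these values, went against their label.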

How the results depend on the processing

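Of 180 single genes given, 158 kept their direction and their call under all 23 alternatives. Scaling without the Mup genes moved the calls to 1453 higher and 6329 lower, and those of the interaction to 626 and 2873. It also turned the family sums of Cyp4a to -0.1728 and Saa to -0.2333, and brought those of Serpina1 (-0.4467), Serpina3 (-0.4378) and Hamp (-0.4139) past the threshold. Without the DKO libraries H2 and H3 the Saa sum was -1.278 and the Orm sum -3.974, both past it. Leaving out 1 library at a time gave 2668 to 2780 higher and 2832 to 2983 lower calls, 1146 to 1223 positive and 1103 to 1205 negative interactions, and sums of -0.1214 to 0.3593 for Cyp4a, -0.5239 to 0.5867 for Saa and -2.946 to -1.012 for Orm. The cause of these shifts was not tested.

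Some genes that were not called in the comparison changed sign. Saa1 (0.56 ± 1.10) and Saa2 (-0.79 ± 1.21) did so with a wide spread among the DKO libraries, and the others lay nearer 0. Equal library totals gave 0.05427 for Cebpd, 0.05717 for Timd4 and 0.04187 for Hnf4a, and quantile normalization 0.1295 for Cebpd, 0.06826 for Timd4 and -0.001866 for Cop1. The Mup-free scaling gave -0.1135 for Cebpz, -0.219 for Hp, -0.2604 for Trib2 and -0.2758 for Cop1, and only the last of these passed. Without H2 and H3 the values were -1.124 for Saa1, -0.5955 for Hp and -0.522 for Trib2. Leaving out 1 library at a time gave -0.1928 to 0.09844 for Cebpd, -0.06647 to 0.06602 for Timd4, -0.2057 to 0.2324 for Trib2 and -0.02331 to 0.04929 for Cop1. It gave -0.1662 to 1.453 for Saa1, -1.702 to 0.09788 for Saa2 and -0.2061 to 0.3269 for Hp. Calls lost by leaving out 1 library were those of Ddb1 (C1, C3, D3, G1, G3, H1, H2 or H3, limma adjusted p = 0.0623 to 0.111), Zfp36 (C3, D2, D3, G2, G3 or H2, 0.0566 to 0.122), Cebpb (C3, D3 or G3, 0.0573 to 0.0628) and Lcn2 (H1, 0.0532). Ddb1 also lost its call with no filter (0.0661), with only the 12 libraries (0.0585), with equal library totals (0.273) and without the trend (0.0691), and Zfp36 with no filter (0.0602), with quantile normalization (0.0525) and without the trend (0.0571). Calls gained by leaving out 1 library were those of Sort1 (C1, C2 or G2, 0.0335 to 0.0439), Clec4f (D1, 0.0358) and Orm1 (H3, 0.044).

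The numbers in the column names did not pair the libraries: deviations from the group means correlated at -0.0533 to 0.0292 between DKO libraries and those labelled Trib1-KO with the same number. With the number as a replicate block, 2982 genes were higher and 3149 lower, and 1336 and 1287 interactions were called. Of the single genes, the block changed the call of Clec4f alone (-0.2644, adjusted p = 0.0259). The planned block by letter and number was not run, because the groups share no letter. Whole reads were not recovered, so depth limits on low genes could not be set as counting intervals.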
